A study of Mus musculus with 9 samples.

Results

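The small leucine-rich proteoglycans (SLRPs) are secreted proteins of the connective tissue matrix, and the 9 genes described here are Dcn, Bgn, Aspn, Lum, Fmod, Prelp, Omd, Ogn and Podn. They were taken by name from tables of 49585 genes, and all 9 were found in each table and passed the filter on low counts. The data are RNA sequencing of mouse skin in 9 libraries, 3 per group. The groups were wild-type C57BL/6, wild-type BALB/c, and mice of C57BL/6 strain labelled with the genotype IL-6 -/-, which lacks interleukin-6. The animals of all groups came from 1 supplier at 4 to 5 weeks of age and were acclimated for 2 weeks. At 6 weeks of age they were shaved (day 0), stayed untreated for 7 days, and were killed for skin on day 8. The protocol names 6 mice for the IL-6 -/- group and 3 for each strain. No label links a library to a single animal, so the p-values cover library-to-library spread, which may be technical. The labels do not describe the deleted part of Il6 or the sex of the mice.

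SLRPs carry a core of leucine-rich repeats that binds collagen, and most members bear chains of chondroitin, dermatan or keratan sulfate. In dermis they are made mainly by fibroblasts, where they set the diameter and spacing of collagen fibrils and hold growth factors such as TGF-β in the matrix. Mice that lack decorin have fragile skin, and mice that lack fibromodulin or lumican have irregular fibrils in tendon and skin. The members fall into classes by sequence, with decorin, biglycan and asporin in class I, lumican, fibromodulin, PRELP and osteomodulin in class II, osteoglycin in class III, and podocan in a class of its own.

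Total exon reads ranged from 6083876 to 6882193 in the C57BL/6 libraries, from 6115739 to 6242332 in BALB/c and from 3843953 to 4476346 in those labelled IL-6 KO. Il6 had 6, 24 and 1 reads in the IL-6 KO-labelled libraries and at most 2 in any other, which runs against the label, so every direction given for that group rests on the label. Reads over Il6 are counted across the whole gene, and a transcript left by the deletion would be counted too. BALB/c replicate 2 stood apart by 130 reads of Xist, against 5 or fewer elsewhere, and results are also given without it where a call depends on it. The tables labelled IL-6 KO were the shallowest and differ in format, so depth, table format and label cannot be told apart. Levels below are CPM (reads scaled to library size and TMM factors), differences are log2 fold changes ± SE, and a gene was called at an adjusted p under 0.05 in edgeR's quasi-likelihood test. RPKM, reads scaled to exon length and to total exon reads, is used where genes are compared with each other.

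Fmod, Bgn and Podn are the members on which the results turn, because each was called in 2 of the 3 comparisons. The 250 bases before the annotated start of each are shown, from RefSeq's annotation of GRCm38.p6, to show how unlike the upstream sequences of these 3 genes are. Capitals mark matches, on either strand, to 4 short motifs. These are the TATA box TATAAA, the GC box written here as GGGCGG, the site of the AP-1 factors written as TGANTCA, and a short Smad-binding element, written as CAGAC. The windows lie at chr1:134037004-134037253 (+) for Fmod, chrX:73483351-73483600 (+) for Bgn and chr4:108031955-108032204 (-) for Podn. The gene span used for the counts of Podn is longer (108014791 to 108096445). The Podn window therefore lies inside that span, downstream of where it starts.
Fmod: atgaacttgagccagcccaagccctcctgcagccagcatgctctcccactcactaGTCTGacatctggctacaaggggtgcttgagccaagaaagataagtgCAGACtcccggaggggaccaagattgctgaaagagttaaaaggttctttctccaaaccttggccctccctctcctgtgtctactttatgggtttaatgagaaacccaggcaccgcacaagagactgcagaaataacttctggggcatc
Bgn: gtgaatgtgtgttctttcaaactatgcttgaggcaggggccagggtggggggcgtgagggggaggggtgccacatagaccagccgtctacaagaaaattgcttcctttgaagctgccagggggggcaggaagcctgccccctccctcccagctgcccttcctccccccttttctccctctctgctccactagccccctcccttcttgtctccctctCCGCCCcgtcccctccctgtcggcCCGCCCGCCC
Podn: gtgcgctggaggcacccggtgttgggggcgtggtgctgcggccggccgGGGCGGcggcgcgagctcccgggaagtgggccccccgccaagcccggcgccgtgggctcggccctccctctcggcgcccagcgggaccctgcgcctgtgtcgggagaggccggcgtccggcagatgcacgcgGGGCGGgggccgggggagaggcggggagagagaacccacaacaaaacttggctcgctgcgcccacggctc

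GC content was 51.2% in the Fmod window, 64.4% in the Bgn window and 78% in the Podn window, against a median of 52.4% over 32851 promoter windows. Fmod held 2 matches to the Smad element and none to the other motifs. Bgn held 3 GC boxes, 2 of them overlapping just before its start, and Podn held 2. Of all 32851 windows of 300 bases, 49.6% held the Smad element, 35.7% the GC box, 13.6% the TATA box and 7.81% the AP-1 site, so these matches are common and describe the letters only. The promoter table held 7 of the 9 members. Dcn and Lum were not in it. The TATA box was found in the windows of Ogn and Aspn, the Smad element in that of Prelp, and no match to any of the 4 motifs in that of Omd. Podn has a further annotated start, with no match in its 250 upstream bases.

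The genes lie in 5 places of the genome (GRCm38). Dcn (chromosome 10, 97479500 to 97518162) is followed on the same strand by Lum (chromosome 10, 97565501 to 97572703) and then by the cornea and cartilage members Kera and Epyc. Aspn (chromosome 13, 49544443 to 49567565), Omd (chromosome 13, 49582766 to 49592609) and Ogn (chromosome 13, 49608071 to 49624500) form a row behind Ecm2, a leucine-rich matrix gene. Prelp (chromosome 1, 133910304 to 133921414) and Fmod (chromosome 1, 134037254 to 134048277) lie on opposite strands of chromosome 1, with Optc next to Prelp. Podn is on chromosome 4 (108014791 to 108096445) and Bgn on chromosome X (73483602 to 73495933). All 9 are protein-coding. Of the sparsely read neighbours, Kera had 1 to 9 exon reads per library, Epyc 1 to 8 and Optc 3 to 14, none of which passed the filter.

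The 4 members that lie wholly or largely inside other genes also had a low share of reads counted as unique. Whether the overlap lowers this share was not tested. The exons of Ogn, Aspn and Omd lie wholly within the span of Cenpp, a centromere protein gene on the opposite strand. Of the exon bases of Prelp, 79.0% lie inside the span of the antisense gene Gm15851 and 9.68% on its exons. Reads counted as unique, taken here as those assigned to 1 gene alone, were 19.7 to 29.8% of the exon reads of Ogn, 26.9 to 47.7% of Aspn, 6.45 to 28.6% of Omd and 16.2 to 25.0% of Prelp, against 100% for each of the other 5 members. Cenpp itself had 8 to 24 exon reads and Gm15851 had 0 in each library. Total exon reads, which keep these reads in each table, were therefore used for all members. The counting is not stated to use strand, so reads of a member and of its antisense partner cannot be told apart.

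Decorin was by far the most abundant family member per length in each group, and the order of the means below it changed for Bgn, Fmod and Prelp. In C57BL/6 the RPKM levels were 566 ± 150 for Dcn (SD, n = 3), 109 ± 43.0 for Lum, 89.7 ± 29.1 for Bgn, 47.7 ± 23.3 for Ogn, 39.1 ± 14.7 for Prelp, 32.0 ± 10.8 for Aspn, 18.7 ± 1.36 for Podn, 9.47 ± 0.625 for Fmod and 5.28 ± 1.69 for Omd. The neighbours from Lum down to Aspn overlapped in this order, whereas Dcn, Podn, Fmod and Omd were each separated from their neighbours in the 3 libraries. In BALB/c, Bgn was the sixth by mean, at 26.5 ± 11.4 RPKM, below Ogn (60.1 ± 22.2), Prelp (34.9 ± 18.5) and Aspn (32.5 ± 10.5). Its range overlapped those of Prelp, Aspn and Podn. Bgn was below Prelp in replicate 1 (13.4 against 56.0 RPKM) but above it in replicates 2 (33.3 against 26.7) and 3 (32.8 against 21.9). Fmod, at 1.96 ± 0.229 RPKM, was the lowest member in BALB/c and lay below each value of Omd (4.70 ± 2.02). In the IL-6 KO-labelled libraries, Bgn was again the third by mean, at 107 ± 37.5 RPKM, although it ranked 2 in replicates 1 and 3. Podn (5.46 ± 2.19), Omd (4.17 ± 2.34) and Fmod (2.23 ± 0.859) formed the overlapping lower end of this group.

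Dcn made up 55.3 to 68.2% of the summed RPKM of the 9 genes in each library, and Lum 9.08 to 16.2%. The share of Bgn was 9.09 to 10.2% in the C57BL/6 libraries, 2.43 to 3.61% in those of BALB/c and 10.5 to 17.6% in the IL-6 KO-labelled libraries, without overlap between the groups. Together the 9 genes took 0.293, 0.173 and 0.189% of all exon reads for C57BL/6, 0.130, 0.220 and 0.205% in those of BALB/c, and 0.105, 0.300 and 0.165% in the IL-6 KO-labelled libraries. The groups overlapped in this share, and the spread within a group was as wide as that between groups.

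**Figure D1:**
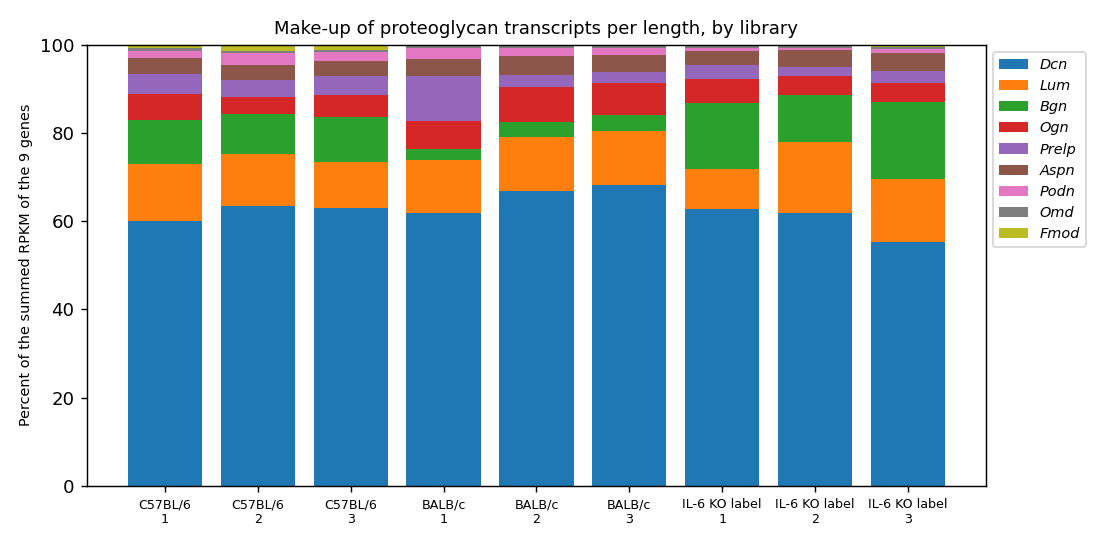
Share of each gene in the summed RPKM of the 9 proteoglycan genes (y axis, percent), with 1 stacked bar per library on the x axis. Dcn fills 55.3 to 68.2% of each bar, and the Bgn segment is narrow in the 3 BALB/c bars (2.43 to 3.61%).

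Fibromodulin, the class II member that binds collagen fibrils and lysyl oxidase, was high in C57BL/6 alone. Fmod was at 34.4, 31.6 and 32.7 CPM in C57BL/6 replicates 1 to 3, at 6.05, 7.48 and 6.00 in BALB/c and at 4.23, 7.74 and 8.92 in the IL-6 KO-labelled libraries. Every C57BL/6 value lay above every other, and the other groups overlapped. Fmod fell by 2.33 ± 0.237 on the log2 scale in BALB/c (adjusted p = 9.03e-04) and by 2.22 ± 0.241 in the IL-6 KO-labelled libraries (adjusted p = 4.70e-04), 5.04-fold and 4.66-fold lower. Both comparisons use the same 3 C57BL/6 libraries. Between the low groups the difference was 0.11, with a 95% interval from −0.46 to 0.68 (adjusted p = 0.751). In bulk skin, fewer cells that make a transcript and less of it per cell cannot be told apart, here and for all results that follow. Both calls held under every alternative that tested the gene, and without BALB/c replicate 2 the difference in BALB/c was −2.44 (adjusted p = 0.00654). With junction reads alone, of which Fmod had 0 to 20 per library, it did not pass the filter.

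Fmod also had the tightest C57BL/6 replicates of the family, with a highest library 1.09 times the lowest. Set against lumican, its closest relative in sequence, Fmod had 9.91, 18.5 and 16.8 reads per 100 Lum reads in C57BL/6. It had 4.43, 2.99 and 2.58 in BALB/c, against 5.08, 1.94 and 4.78 in the IL-6 KO-labelled libraries. This ratio needs no scaling between libraries, and its C57BL/6 values again lay above all others. The log2 ratio differed by −2.16 for BALB/c and by −2.01 for the IL-6 KO-labelled libraries against C57BL/6 (two-sided exact permutation p = 0.1 each, the smallest that 3 against 3 can give, adjusted p = 0.12 over 6 tests). Between the low groups it differed by 0.15 (exact permutation p = 0.8).

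Biglycan, the X-linked class I proteoglycan with paired glycosaminoglycan chains that also acts as a ligand of Toll-like receptors, was low in BALB/c. Bgn was at 461, 230 and 325 CPM in C57BL/6, at 47.3, 121 and 117 in BALB/c and at 233, 443 and 397 in the IL-6 KO-labelled libraries. All BALB/c values lay below all others, and the remaining groups covered the same range. Bgn fell by 1.83 ± 0.402 in BALB/c against C57BL/6 (adjusted p = 0.0437) and was higher by 1.91 ± 0.403 in the IL-6 KO-labelled libraries than in BALB/c (adjusted p = 0.00603). Between the IL-6 KO-labelled libraries and C57BL/6 the difference was 0.08, with a 95% interval from −0.79 to 0.95. The call against C57BL/6 was close to the threshold. It was lost with library size alone as the scaling (adjusted p = 0.0551), with the replicate block (−1.95, adjusted p = 0.0821) and without any 1 of the 3 C57BL/6 libraries, any 1 of the 3 BALB/c libraries or IL-6 KO replicate 3 (adjusted p from 0.0502 to 0.129), with log2 differences from −2.05 to −1.50 over all libraries left out. Without BALB/c replicate 2 the difference was −2.03 (adjusted p = 0.104).

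The ratio of biglycan to decorin, its nearest relative, varied less within each strain than either gene. There were 28.3, 24.5 and 27.7 Bgn reads per 100 Dcn reads in C57BL/6, then 6.73, 8.75 and 9.05 in BALB/c, against 40.3, 29.1 and 54.3 in the IL-6 KO-labelled libraries. No group overlapped another. The log2 ratio differed by −1.72 for BALB/c against C57BL/6, by 0.58 for the IL-6 KO-labelled libraries against C57BL/6 and by 2.30 for those against BALB/c. Each had a two-sided exact permutation p = 0.1, the smallest possible, and an adjusted p = 0.12 over the 6 ratio tests.

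**Figure D2:**
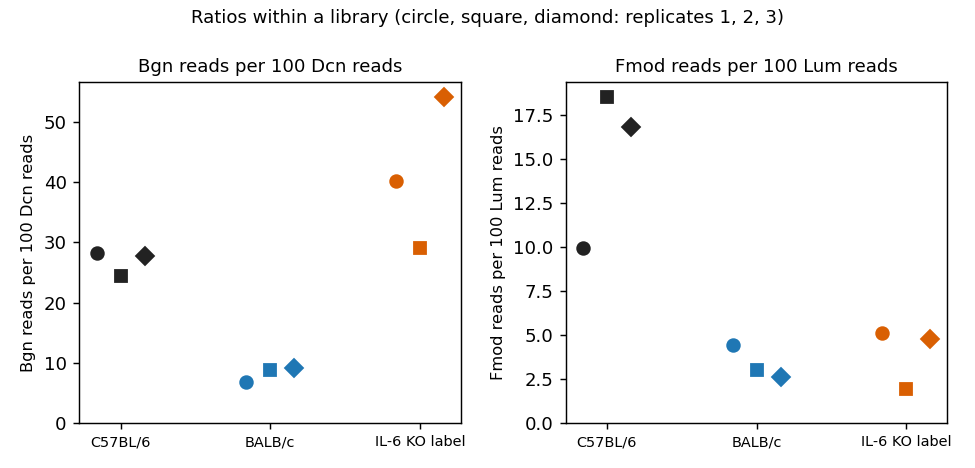
Reads of Bgn per 100 reads of Dcn (left y axis) and of Fmod per 100 reads of Lum (right y axis) in each library, by group on the x axis, with 1 symbol per replicate. The BALB/c libraries lie at 6.73 to 9.05 on the left, and the C57BL/6 libraries at 9.91 to 18.5 on the right, apart from the other groups.

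Podocan, a proteoglycan described in smooth muscle and fibroblasts that binds collagen, was low in the IL-6 KO-labelled libraries. Podn was at 90.4, 77.8 and 83.4 CPM in C57BL/6, at 56.4, 70.5 and 60.7 in BALB/c and at 15.9, 30.7 and 19.3 in the IL-6 KO-labelled libraries. The 3 groups did not overlap. Podn fell by 1.92 ± 0.221 in the IL-6 KO-labelled libraries against C57BL/6 (adjusted p = 5.22e-04) and was at −1.50 ± 0.220 against BALB/c (adjusted p = 0.00115), 3.79-fold and 2.83-fold lower. BALB/c against C57BL/6 gave −0.42 ± 0.207 (95% interval −0.89 to 0.04, adjusted p = 0.299). Podn and the lipid transfer gene Scp2 overlap on the same strand over 1.01% of the exon bases of Podn.

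Intron reads gave a further readout of Podn from the same libraries, with a limit. Part of the Podn span lies inside that of Scp2 (108043839 to 108144998), which had 483 to 2674 exon reads per library. Whether reads of Scp2 entered the intron counts of Podn was not tested. Podn intron reads numbered 150, 171 and 123 in C57BL/6, then 127, 95 and 96 in BALB/c, against 9, 54 and 24 in the IL-6 KO-labelled libraries. The IL-6 KO-labelled libraries lay below all others here too. In a fit of intron reads over 10378 genes, Podn was lower by −2.15 ± 0.348 against C57BL/6 (adjusted p = 4.56e-04) and by −1.52 ± 0.350 against BALB/c (adjusted p = 0.00565). Of the 4 members with enough intron reads to test, namely Bgn, Dcn, Aspn and Podn, 1 was called in the IL-6 KO-labelled libraries against C57BL/6, where 23.4% of all genes were. Against BALB/c it was 2, with 23.4% of all genes, the other being Aspn at −1.49 ± 0.457 (adjusted p = 0.0278), whose introns lie within the span of Cenpp. In BALB/c against C57BL/6 it was 0, with 6.47% of all genes, although Bgn was under 0.05 before adjustment (−1.49 ± 0.509, adjusted p = 0.102 in edgeR). Bgn intron reads differed by 1.03 ± 0.545 between the IL-6 KO-labelled libraries and BALB/c (adjusted p = 0.192), not called and below the exon value of 1.91 given above. No other tool was run on intron reads.

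Prelp, a class II member with a heparin-binding arginine- and proline-rich end, was called in 1 comparison. Prelp was at 214, 100 and 135 CPM in C57BL/6, at 201, 98.1 and 79.1 in BALB/c and at 51.8, 80.2 and 62.0 in the IL-6 KO-labelled libraries. The last group lay below all C57BL/6 values and overlapped BALB/c by 1 library. Prelp fell by 1.21 ± 0.382 in the IL-6 KO-labelled libraries against C57BL/6 (adjusted p = 0.0346). It differed from BALB/c by −0.96 ± 0.381 (adjusted p = 0.0736), and BALB/c from C57BL/6 by −0.25 ± 0.373 (adjusted p = 0.765). The call was lost without replicate 1 or 3 of C57BL/6 or of the IL-6 KO label, with library size alone (adjusted p = 0.0594), with unique exon reads (0.0862) and with junction reads (0.067), and the adjusted p without 1 library ran from 0.0119 to 0.123.

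The 5 remaining members were not called in any comparison of total exon reads over all libraries, where neither edgeR before adjustment (at a p under 0.05) nor DESeq2 picked any of them. Aspn in intron reads, given above, and Ogn without IL-6 KO replicate 2 (−1.23 against BALB/c, adjusted p = 0.0493) were called. Decorin, the main dermatan sulfate proteoglycan of dermis, was at 1628, 939 and 1173 CPM in C57BL/6, at 703, 1380 and 1290 in BALB/c and at 579, 1522 and 732 in the IL-6 KO-labelled libraries. Lumican, a keratan sulfate proteoglycan that limits fibril diameter, was at 347, 171 and 195 CPM in C57BL/6, at 136, 250 and 232 in BALB/c and at 83.3, 398 and 187 in the IL-6 KO-labelled libraries. The groups overlapped for both genes, and a single library set the highest value in C57BL/6 and in the group labelled IL-6 KO. The log2 differences of Dcn were −0.15 for BALB/c and −0.40 for the IL-6 KO-labelled libraries against C57BL/6, with 95% intervals from −1.04 to 0.75 and from −1.30 to 0.49. Those of Lum were −0.20 and −0.09, with intervals from −1.33 to 0.92 and from −1.22 to 1.04. These intervals include changes of 2-fold, so the genes are not shown to be alike in the groups.

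The chromosome 13 members gave the same picture. Osteoglycin (Ogn), also called mimecan, was at 198, 71.9 and 115 CPM in C57BL/6, at 89.5, 203 and 168 in BALB/c and at 61.6, 134 and 69.2 in the IL-6 KO-labelled libraries. Asporin (Aspn), a class I member that lacks the usual glycosaminoglycan chain and binds TGF-β, was at 111, 56.2 and 71.7, at 49.4, 100 and 81.6, and at 31.5, 108 and 62.4 CPM in the same order of groups. Osteomodulin (Omd), known from mineralized tissue, was at 2.64 to 11.8 CPM over all libraries. The groups overlapped for each. The largest difference among them was that of Ogn between the IL-6 KO-labelled libraries and BALB/c, −0.80 ± 0.437 (95% interval −1.78 to 0.18, adjusted p = 0.178).

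**Figure D3:**
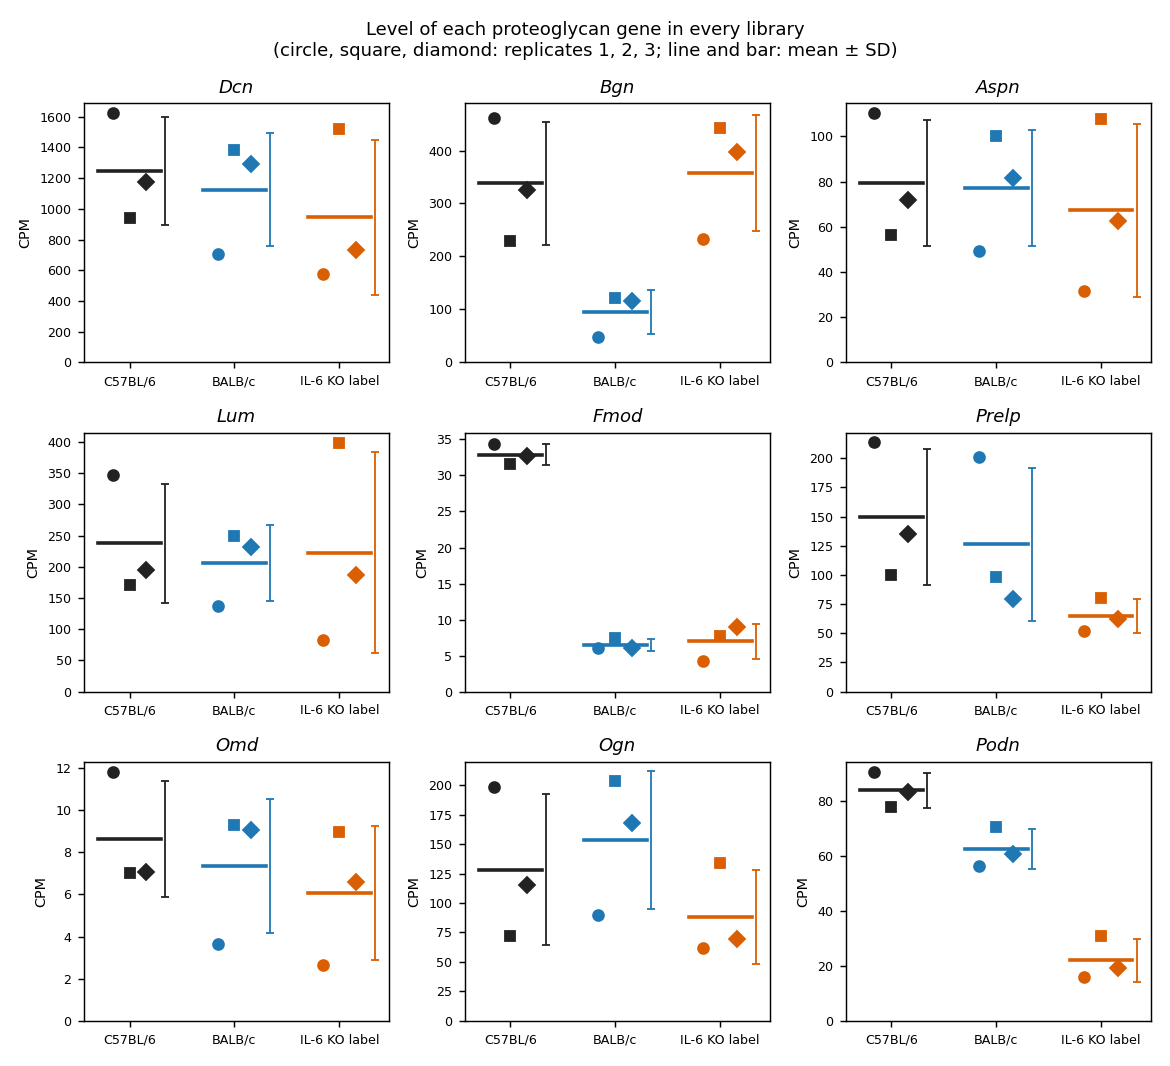
CPM of each gene (y axis, from 0) in the 3 libraries of each group (x axis), with the group mean as a line and the SD as a bar. Fmod is high in the C57BL/6 libraries alone (31.6 to 34.4 CPM), Bgn is low in BALB/c (47.3 to 121) and Podn is low in the IL-6 KO-labelled libraries (15.9 to 30.7).

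Counted over the family, 2 of 9 members (Fmod and Bgn) were called in BALB/c against C57BL/6, both lower, where 3.41% of the 14415 genes tested were called, 1.78% lower and 1.63% higher. In the IL-6 KO-labelled libraries against C57BL/6, 3 of 9 (Fmod, Podn and Prelp) were lower and 0 higher, where 35.2% of all genes were called, 16% lower and 19.2% higher, so the share called is near that of all genes. Against BALB/c, 1 was higher (Bgn) and 1 lower (Podn), where 37.3% of all genes were called, 19.9% higher and 17.4% lower. The libraries of the groups did not overlap for 3 members in the first comparison (Fmod, Bgn and Podn), 3 in the second (Fmod, Podn and Prelp) and 2 in the third (Bgn and Podn), beside 30.2, 47.5 and 50.7% of all genes. A joint test over the 3 groups called 3 members, Fmod (adjusted p = 2.07e-04), Podn (7.04e-04) and Bgn (0.0099), where 40.7% of all genes were called. The median log2 difference of the 9 members was −0.24, −0.49 and −0.25 in the 3 comparisons, beside −0.01, 0.01 and 0.01 over all tested genes. The 3 comparisons share libraries pairwise and are not independent.

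**Figure D4:**
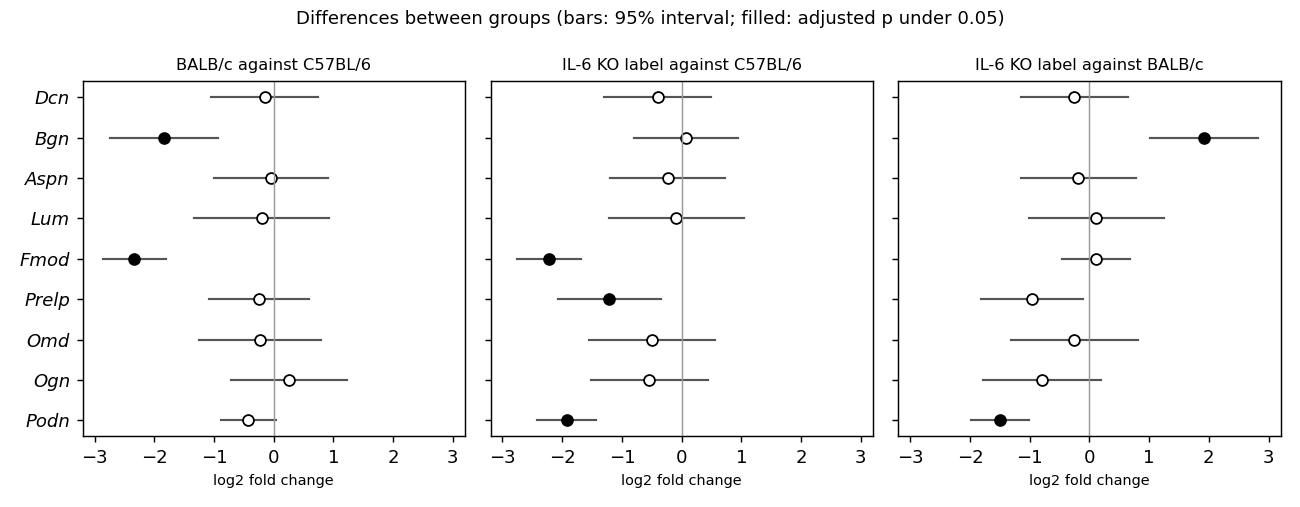
Log2 fold change of each gene (x axis) with its 95% interval in the 3 comparisons, filled where the adjusted p was under 0.05. Fmod and Bgn are filled on the left, Fmod, Prelp and Podn in the middle, and Bgn (1.91) and Podn (−1.50) on the right.

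Most members varied together among the libraries of 1 group. C57BL/6 replicate 1 had the highest and replicate 2 the lowest CPM of all 9 members. IL-6 KO replicate 1 had the lowest value of all 9, and replicate 2 the highest of 8, with Fmod the exception. That replicate 2 stood apart from replicates 1 and 3 in skin markers too. Its hair shaft markers summed to 3488 CPM against 18113 and 13731, its melanocyte markers to 69.6 against 754 and 865, and its keratinocyte markers to 30144 against 9467 and 12160. Their part in the member levels was not tested. Without it, Podn was at −2.25 and −1.82 (adjusted p = 3.06e-05 and 6.14e-05), Fmod at −2.29 against C57BL/6, Prelp at −1.40 against C57BL/6 and Bgn at 1.73 against BALB/c, all called. Keratinocyte markers summed to 18991 to 29499 CPM in C57BL/6 and 24334 to 28481 CPM in BALB/c. In BALB/c, replicate 2 was highest for 8 members and replicate 1 lowest for 7. Prelp departed from this pattern, being highest in BALB/c replicate 1, where its intron reads were 34 against 3 and 4 in the other BALB/c libraries. The summed adipocyte markers of that library were 11355 CPM, against 2988 and 3046 in the other BALB/c libraries, and their part in the Prelp value was not tested.

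The summed CPM of fibroblast markers moved in the same libraries. The 23 fibroblast markers outside the family summed to 16030.5, 4553 and 9662 CPM in C57BL/6 replicates 1 to 3. The sums were 4191, 7368 and 6892 CPM in BALB/c and 3337, 8204 and 4802 CPM in the IL-6 KO-labelled libraries. The ranges of the groups overlapped, and the order of libraries within each group was that of Dcn. A large part of the sum was Sparc, at 5181 ± 4047 CPM in C57BL/6, and other markers varied less, such as Twist1 at 26.5 ± 4.50 CPM. In BALB/c none of the 23 was called against C57BL/6 by edgeR (5 at an unadjusted p under 0.05, 1 by DESeq2), and in the IL-6 KO-labelled libraries 2 were lower, Pdgfrb (−0.94, adjusted p = 0.0223) and Twist1 (−1.11, adjusted p = 0.0254). The medians over the list were −0.32 and −0.46, and 3.41 and 35.2% of all genes were called in these comparisons.

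Markers of several other tissues moved with the group differences. Beside the counts below, edgeR called 3.41% of all genes in BALB/c against C57BL/6, 1.78% lower. In the IL-6 KO-labelled libraries against C57BL/6 it called 35.2%, 16% lower and 19.2% higher. Skeletal muscle markers summed to 69640 to 120636 CPM in the C57BL/6 libraries, 33970 to 70850 in those of BALB/c and 11611 to 13113 in the IL-6 KO-labelled libraries, where 16 of 16 were lower than in C57BL/6. The sums of Schwann cell markers (741 to 1117, 628 to 745 and 181 to 295 CPM) and of pericyte and smooth muscle markers (2427 to 3450, 1367 to 2701 and 791 to 857 CPM) were also lowest in that group, with 6 of 8 and 6 of 10 called lower against C57BL/6. The last sum was mostly Des, with means of 2307, 1667 and 427 CPM in the same order. Of these 10 markers, those not called did not all fall, with Tagln at means of 62.0, 38.2 and 68.8 CPM. Podn was lowest in the IL-6 KO-labelled libraries too. Hair shaft and matrix markers summed to 32.1 to 141, 30.1 to 42.5 and 3488 to 18113 CPM, and 14 of 14 were higher in the IL-6 KO-labelled libraries. Tendon and cartilage markers summed to 357 to 562 CPM in the C57BL/6 libraries, 85.8 to 155 in those of BALB/c and 193 to 389 in the IL-6 KO-labelled libraries, with Matn3 at 0 in every group. Of 7 tested, Cilp (−2.02, adjusted p = 0.032) and Thbs4 (−2.68, adjusted p = 0.0456) were lower in BALB/c, the group in which Bgn was low. Leukocyte markers (685 to 1136, 520 to 849 and 393 to 984 CPM) overlapped in all groups. Endothelial markers summed to 341 to 525, 173 to 328 and 164 to 225 CPM, highest in C57BL/6 as Fmod was, with 1 of 10 called lower in BALB/c and 7 of 10 in the IL-6 KO-labelled libraries. Dermal papilla and sheath markers summed to 36.1 to 53.1, 21.5 to 38.2 and 59.2 to 162 CPM, with 4 of 8 called higher and 1 lower in the last group against C57BL/6. Melanocyte markers summed to 26.7 to 33.7, 16.5 to 27.7 and 69.6 to 865 CPM. The part of these tissues in the results of Podn, Bgn and Fmod was not tested. With the listed muscle and hair shaft markers removed before scaling, the same members were called in BALB/c and in the IL-6 KO-labelled libraries against C57BL/6. This bears on the scaling and not on the part of these tissues in the member levels.

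Among the leucine-rich relatives, 3 of 9 passed the filter. Ecm2, the neighbour of Aspn, was at 64.9 ± 22.9 CPM in the C57BL/6 libraries, 27.0 ± 4.92 in those of BALB/c and 27.5 ± 12.9 in the IL-6 KO-labelled libraries. It fell by 1.23 ± 0.337 in the last group against C57BL/6 (adjusted p = 0.0198), and BALB/c gave −1.27 ± 0.334, which edgeR did not call (adjusted p = 0.079) and DESeq2 did. Chadl and Tsku were not called.

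The counts for the collagens that SLRPs bind, and for their processing genes, stand beside the share of all genes called. This was 3.41, 35.2 and 37.3% in the 3 comparisons. Of 15 fibrillar and associated collagen genes, edgeR called 0 in BALB/c against C57BL/6 (9 at an unadjusted p under 0.05, and 2 by DESeq2, Col6a1 and Col6a2), with a median of −1.08. The 15 genes summed to 8015 to 52938 CPM in the C57BL/6 libraries and 4074 to 11112 CPM in those of BALB/c, which overlapped. In the IL-6 KO-labelled libraries 2 were higher than in either strain. These were Col12a1, a fibril-associated collagen (40.8 ± 8.51 CPM in the C57BL/6 libraries, 32.6 ± 1.98 in those of BALB/c and 109 ± 27.8 in the group labelled IL-6 KO), and Col11a1, a fibril-nucleating chain (4.24 ± 1.53, 1.73 ± 0.344 and 14.2 ± 5.16 CPM). Of 18 genes of collagen processing and crosslinking, edgeR called 0 in BALB/c (7 at an unadjusted p under 0.05, 1 by DESeq2). In the IL-6 KO-labelled libraries against C57BL/6, Plod2, a lysyl hydroxylase of collagen, was higher (1.89 ± 0.363, adjusted p = 0.00403) and 2 genes were lower, among them P4ha2, a prolyl hydroxylase subunit (−1.17 ± 0.350, adjusted p = 0.0283).

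Enzymes that build and cut the proteoglycans were tested as further lists. Of 27 genes of glycosaminoglycan synthesis, edgeR called 0 in BALB/c (7 at an unadjusted p under 0.05, 1 by DESeq2). Against C57BL/6, 1 was higher and 4 lower in the IL-6 KO-labelled libraries, and against BALB/c 8 were higher and 3 lower. Of all genes, 3.41, 35.2 and 37.3% were called in the 3 comparisons. The one higher against C57BL/6 was Csgalnact1, which starts chondroitin sulfate chains (2.03 ± 0.322, adjusted p = 0.00168). Chpf, a chondroitin polymerizing factor, was lower (−0.92 ± 0.289, adjusted p = 0.0337). Of 11 proteases known to cleave SLRPs, the membrane-type metalloproteinase Mmp14 fell in BALB/c, from 236 ± 63.8 to 75.3 ± 20.5 CPM (−1.65 ± 0.298, adjusted p = 0.0188). Adamts4 and Mmp13 were higher in the IL-6 KO-labelled libraries than in C57BL/6 (1.93 ± 0.515, adjusted p = 0.0178, and 3.92 ± 1.03, adjusted p = 0.0167). Both were low in C57BL/6 and uneven in the IL-6 KO-labelled libraries. Adamts4 was at 1.42 ± 0.710 and 5.48 ± 3.03 CPM, and Mmp13 at 0.952 ± 1.06 and 15.3 ± 15.1 CPM.

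Partners and other proteoglycans were read against the 3.41, 35.2 and 37.3% of all genes called in the 3 comparisons. Of 23 growth factors and receptors that SLRPs bind, edgeR called 0 in BALB/c (6 at an unadjusted p under 0.05, and 1, Met, by DESeq2) and 1 in each direction in the IL-6 KO-labelled libraries against C57BL/6. Against BALB/c 5 were higher and 3 lower, with Egfr, a decorin receptor, higher (0.94 ± 0.198, adjusted p = 0.00597) and Met, another, lower (−0.71 ± 0.181, adjusted p = 0.014). Of 15 large proteoglycan and hyaluronan genes, edgeR called 0 in BALB/c (3 at an unadjusted p under 0.05, 0 by DESeq2), and 6 were higher and 2 lower in the IL-6 KO-labelled libraries than in C57BL/6. Among the higher were the hyaluronan receptor Cd44 (1.40 ± 0.131, adjusted p = 4.29e-04), the hyaluronan synthase Has3 (2.29 ± 0.349) and Acan, the cartilage proteoglycan aggrecan, at 3.22 ± 0.918 CPM against 0.151 ± 0.149.

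The genes whose log2 CPM followed a member most closely over the 9 libraries were taken as a description. For Fmod they were Crnde, Mill2 and Hyi (Pearson r from 0.969 to 0.978), for Bgn Olfml3, Prcp and Capn6 (0.970 to 0.985), and for Podn Il31ra, Limch1 and Tor1aip1 (0.989 to 0.992). For Dcn they were Slc9a9, Tgfbr2 and P2ry6, and for Aspn Laptm5, Irf8 and Nfam1. The 9 libraries share group and depth, and the genes were picked as the highest of 14415.

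Junction reads, those that cross a splice site, made up 58.4 to 61.7% of the exon reads of Dcn in the C57BL/6 libraries, 42.8 to 46.8% in BALB/c and 52.7 to 54.5% in the IL-6 KO-labelled libraries. The 3 groups did not overlap. Over all genes the shares were 46.8 to 47.1%, 40.2 to 43.6% and 41.5 to 44.1%. These were also highest in C57BL/6, but BALB/c and the IL-6 KO-labelled libraries overlapped. How far the difference in Dcn is that of all genes was not tested.

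The choice of count column turned the sign of 7 members in 1 or more comparisons. For Bgn, Fmod and Lum these were differences near 0, and for Ogn, Aspn, Omd and Prelp they were larger. The Expression value column of the tables equals total exon reads in 100% of genes in the IL-6 KO-labelled libraries but in 88.7 to 89.5% of genes in the others. In that column Ogn, Aspn, Omd and Prelp keep all their reads in the first case and little more than those assigned to 1 gene in the second. With it, Ogn (1.31, adjusted p = 0.0371) and Omd (2.14, adjusted p = 0.0114) were called higher in the IL-6 KO-labelled libraries than in C57BL/6, and Ogn (1.30, adjusted p = 0.0373), Aspn (1.30, adjusted p = 0.027) and Omd (1.82, adjusted p = 0.0202) higher than in BALB/c. With total exon reads the same differences were −0.54, −0.49, −0.80, −0.19 and −0.25, and none was called. Unique exon reads, which have 1 meaning in every table, gave −0.51 for Ogn and −0.19 for Aspn against BALB/c.

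**Figure D5:**
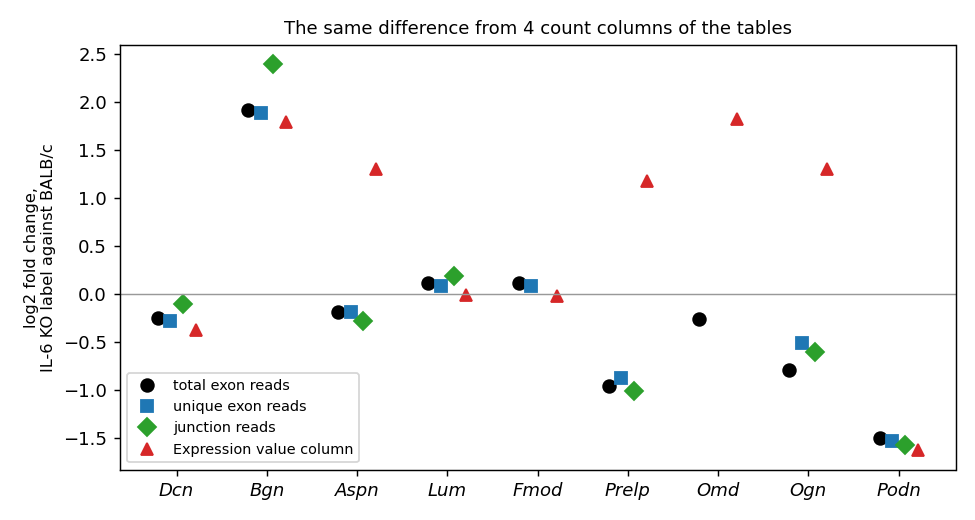
Log2 fold change of each gene between the IL-6 KO-labelled libraries and BALB/c (y axis) from 4 count columns of the tables. The triangles of the Expression value column lie above 1 for Aspn, Prelp, Omd and Ogn, whereas the other symbols of these genes lie below 0. Omd has no symbol for unique or junction reads because it did not pass their filter.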

How the data were processed

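RNA of skin from 9 libraries was compared, 3 per group. Reads were aligned to GRCm38, per the submitters' processing notes; the sources used here do not give the aligner or the counter. The deposited tables hold raw counts of total, unique, junction and intron reads per gene, per the file headers, with RPKM values that the authors computed from total exon reads (100% of genes over 50 reads match within 1%). Their library size was 1.08 to 1.13 times the total exon reads, and RPKM here uses total exon reads. The C57BL/6 replicate 1 file also holds copies of the tables of replicates 2 and 3, and only its first table was used.

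Counts of total exon reads were fitted with edgeR 4.0.16 (R 4.3.3) in a single model of the 9 libraries with 1 term per group. filterByExpr (minimum count 10, total 15) left 14415 genes, TMM factors ran from 0.887 to 1.10, and quasi-likelihood p-values were adjusted by Benjamini-Hochberg over all tested genes (threshold 0.05). The fit was tested on simulated data. Ratios were compared by exact permutation. Positions are those of the tables. Overlaps of exons with other genes were computed from GENCODE vM21, whose spans differ for some genes, among them Omd, Ogn and Cenpp. Promoter sequences and the motif shares come from RefSeq (GRCm38.p6). Alternatives were other scaling, filters, count columns, variance models, DESeq2 1.42.0, a replicate block, fits of only the 2 groups compared, removal of the listed muscle and hair shaft markers, and leaving out each library. Junction reads were added after seeing the data. The members and lists were chosen with earlier results of these data known. Named genes are all members, up to 4 per pathway list by the joint p-value, up to 2 per marker list, and the 3 genes most like each member. Sparc was named for its part in a sum. Python 3.11.15 with pandas 2.3.3 drew up the tables, and matplotlib 3.10.9 the figures.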

Additional observations from a re-analysis of the deposited data

How the results depend on the processing

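Fmod against C57BL/6, Podn in the IL-6 KO-labelled libraries against either strain and Bgn against BALB/c kept their direction and call under every alternative fit of exon or junction reads that tested them. Bgn in BALB/c and Prelp in the IL-6 KO-labelled libraries did not, as given beside their values. The replicate numbers do not pair the libraries (correlations of same-numbered deviations from −0.21 to 0.06). With the replicate block 1 member was called in BALB/c against C57BL/6, as Bgn was lost (adjusted p = 0.0821), and all calls there numbered 255. It moved no other count of members, and turned Bgn in the IL-6 KO-labelled libraries against C57BL/6 to −0.012. Library size alone also left 1 member in BALB/c against C57BL/6, raised the median of all genes in the IL-6 KO-labelled libraries against C57BL/6 to 0.15, and raised the share of called genes that were higher from 47.9, 54.6 and 53.4% to 58.8, 67.8 and 60.9%. It gave 0.026 for Aspn in BALB/c and 0.088 for Lum in the IL-6 KO-labelled libraries. With only the 2 groups compared the share against BALB/c was 59.6%. DESeq2 called 1023 genes in BALB/c against C57BL/6, and Prelp in the IL-6 KO-labelled libraries against BALB/c (adjusted p = 0.0405). Junction reads called 1 member and 192 genes in BALB/c, and 1 member and 3302 genes in the IL-6 KO-labelled libraries against C57BL/6. Unique exon reads gave −0.0057 for Ogn in BALB/c.

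The Expression value column, whose meaning differs between tables, called 5 members against BALB/c and 5 in the joint test. It gave 0.32 for Omd in BALB/c. Against C57BL/6 it gave −0.023 for Bgn, 1.31 for Ogn, 0.81 for Prelp, 0.83 for Aspn and 2.14 for Omd, and against BALB/c −0.015 for Fmod, −0.011 for Lum, 1.30 for Ogn, 1.18 for Prelp, 1.30 for Aspn and 1.82 for Omd.

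Leaving out 1 library at a time, the members called numbered 1 to 2, 2 to 3 and 2 to 3 in the 3 comparisons, and all genes called 167 to 977, 3238 to 6806 and 3310 to 7044, with the lows against the IL-6 KO label without its replicate 3 and all 3 highs without its replicate 2. Intron calls of members were 0 to 1 in BALB/c against C57BL/6 and 1 to 2 against BALB/c. The difference in BALB/c ran from −0.27 to 0.28 for Aspn, −0.32 to 0.11 for Dcn, −0.40 to 0.19 for Lum, −0.032 to 0.73 for Ogn, −0.43 to 0.10 for Omd and −0.75 to 0.11 for Prelp. In the IL-6 KO-labelled libraries against C57BL/6 it ran from −0.75 to 0.10 for Aspn, −0.14 to 0.36 for Bgn and −0.82 to 0.30 for Lum, and against BALB/c from −0.71 to 0.15 for Aspn, −0.78 to 0.0049 for Dcn, −0.10 to 0.36 for Fmod, −0.61 to 0.51 for Lum and −0.64 to 0.084 for Omd. The log2 ratio of Fmod to Lum against BALB/c ran from −0.092 to 0.60. None of these differences was called. Without IL-6 KO replicate 2, Ogn was called against BALB/c (−1.23, adjusted p = 0.0493), as was Prelp without BALB/c replicate 3 (adjusted p = 0.0454). The cause of these shifts was not tested.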
